A study of Mus musculus with 6 samples.

Results

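Bax, Bak1, Bbc3, Pmaip1, Fas, Tnfrsf10b, Apaf1, Perp, Bcl2l1 and Mcl1 are 10 genes of the cell-death programme linked to the tumour suppressor p53. They were chosen by name, for their known roles, with earlier results of these data known. They were matched by gene symbol in the deposited expression tables. All 10 were found among 53379 annotated mouse genes, and all 10 were among the 14537 genes with enough counts to test. Their levels were compared between pancreatic tumour organoids that kept a wild-type copy of Trp53, the gene for p53, and organoids that had lost it.

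The organoids, cultures in which tumour epithelial cells grow as small hollow bodies in a gel, came from tumours of KPC mice on the C57/Bl6 strain. In all of them Cre recombinase, driven by the Pdx1 promoter of the developing pancreas, had switched on a Trp53 allele with the R172H change (Trp53LSLR172H). The heterozygous group (n = 3 libraries) had the genotype Trp53LSLR172H/+, and the group with loss of heterozygosity (LOH, n = 3 libraries) had Trp53LSLR172H/-. The design was matched by line: organoid lines 6, 23 and 34 each gave 1 heterozygous and 1 LOH library. A suffix of unstated meaning closes the description of each LOH sample and of no heterozygous one, and what it marks cannot be told apart from genotype. Values below are given in the order of lines 6, 23 and 34 unless stated otherwise. The p-values measure only the spread between these 6 libraries.

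As background, p53 is a transcription factor that, in stressed cells, raises genes that push the cell towards apoptosis. BH3-only proteins such as PUMA (made from Bbc3) and NOXA (from Pmaip1) occupy the protective proteins BCL-XL (from Bcl2l1) and MCL1, and BAX and BAK are then free to open pores in the outer mitochondrial membrane. Cytochrome c that leaks out joins APAF1 in the apoptosome, which activates caspases, while death receptors at the cell surface (Fas, Tnfrsf10b) reach caspases by a separate route. R172H is a hotspot change in the DNA-binding domain of p53, and tumours that carry it often lose the remaining wild-type allele.

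Libraries held 13680458 to 27917277 expected counts, and a count of 3, taken as the floor of detection, stood for 0.1 to 0.223 CPM (counts relative to the size of the library). Trp53 itself had 77.3, 76.3 and 86.5 CPM in heterozygous and 73.5, 52.5 and 47.4 CPM in LOH organoids (log2 fold change -0.47, SE 0.22, edgeR quasi-likelihood test, adjusted p = 0.227). R172H and wild-type transcripts are counted together, so these values do not check the genotype labels. The 5 epithelial markers summed to between 4457 and 5198 CPM in the heterozygous and between 4572 and 8804 CPM in the LOH libraries, whereas all 7 fibroblast, all 6 leukocyte and all 3 endothelial markers stayed under 1 CPM everywhere, with Col3a1, Adgre1 and Lyz2 among those at 0. The summed fibroblast markers lay between 0.466 and 0.873 CPM in the LOH libraries and at 0.0667 CPM or less in the heterozygous ones. Acinar markers did not exceed a sum of 2.44 CPM and Ins1 and Ins2 were at 0. The share of counts on protein-coding genes was 67.9% to 73.3% in the heterozygous and 61.4% to 67.2% in the LOH libraries, and its part in the results below was not tested. In bulk RNA, fewer cells of a kind and less RNA per cell cannot be told apart.

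Over all genes tested, 757 (5.21%) had an adjusted p under 0.05 in edgeR's quasi-likelihood test, 516 higher (3.55%) and 241 lower (1.66%) in LOH organoids. On the log2(TPM + 1) scale, where TPM are abundances corrected for transcript length, the median log2 fold change of all genes moved from 0.06 to -0.35, and limma called 280 genes higher and 1631 lower. Of the 10 cell-death genes only Bax passed, and it was lower in LOH. Bax, Bcl2l1 and Mcl1 were lower in every LOH library than in any heterozygous library, Pmaip1 was higher in every LOH library, and the groups overlapped for the other 6. Such a separation without overlap was also seen for 32.8% of all genes tested (16.5% lower and 16.4% higher), so 4 of 10 is near the background. The median log2 fold change was -0.22 over the 10 genes and 0.06 over all genes tested, and 8 of the 10 estimates were below 0. The median of the 10 was -0.51 without the LOH library of line 34, -0.13 without that of line 23, -0.40 when blocked by line and, over the 9 genes tested there, -0.68 on the log2(TPM + 1) scale. When the organoid line entered as a block, 213 genes (1.47%) passed and none of the 10 did, although at an unadjusted p under 0.05 the test without the block counted 4 of the 10, against 25.3% of all genes.

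**Figure D1:**
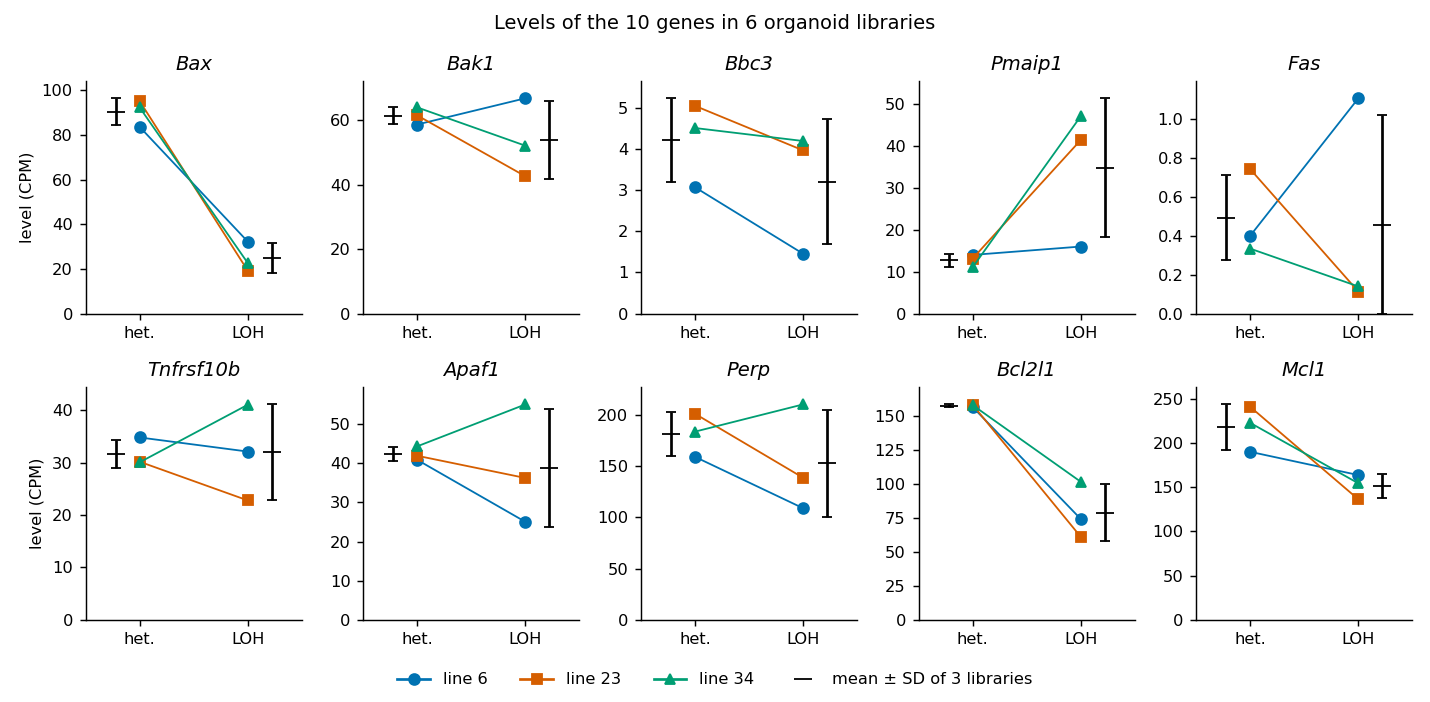
Level of each of the 10 genes in CPM (vertical axis, linear, from 0) in heterozygous (het.) and LOH libraries (horizontal axis), with a colour and marker for each organoid line, a thin line joining the libraries of 1 organoid line, and mean ± SD of 3 libraries in black (the lower Fas bar is clipped at 0). Bax fell in all 3 lines, from 83.6 to 95.1 CPM down to 19.3 to 32.2 CPM, whereas the Apaf1, Perp and Tnfrsf10b points of line 34 lie higher in LOH and those of lines 6 and 23 lower.

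Bax, the pore-forming protein of the mitochondrial outer membrane, had the lowest adjusted p of the 10 genes. The gene (ENSMUSG00000003873.11) lies on the minus strand at chr7:45461697-45466898 in GRCm38. It stood at 83.6, 95.1 and 92.3 CPM in heterozygous organoids and at 32.2, 19.3 and 22.7 CPM in LOH organoids, from 2505, 1282 and 2764 counts and 554, 510 and 487 counts. Every LOH library was therefore far below every heterozygous one, and the drop was shallowest in line 6. The group means were 90.3 ± 6.01 and 24.7 ± 6.74 CPM (SD, n = 3), a ratio of 3.65 (heterozygous over LOH). Bax fell by 1.87 on the log2 scale (SE 0.24, 95% interval -2.43 to -1.31, edgeR adjusted p = 0.0164), and by line the log2 ratios were -1.37, -2.30 and -2.02. With the line as a block the log2 fold change was -1.90 but the edgeR adjusted p was 0.0534. The call was also lost without the heterozygous library of line 6, 23 or 34 (edgeR adjusted p = 0.105, 0.0951 and 0.103) and without both libraries of line 23 or 34 (0.153 and 0.135), while the log2 fold change stayed between -2.27 and -1.68 in all 18 alternatives. The median log2 ratios of 715 other chromosome 7 genes (mean 5 CPM or more) were -0.10, -0.46 and -0.003.

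Because Bax was the gene that passed the test, its promoter is shown beside those of Bcl2l1 and Mcl1, the other genes that were lower in every LOH library. Each line gives the 250 bases before an annotated start, 5′ to 3′ on the strand of the gene, from RefSeq on GRCm38.p6: Bax at chr7:45466899-45467148 (minus strand), Bcl2l1 at chr2:152831729-152831978 (minus strand) and Mcl1 at chr3:95658471-95658720 (plus strand). Capitals mark a match to the 10-base p53 half-site consensus, which reads the same on both strands.
Bax: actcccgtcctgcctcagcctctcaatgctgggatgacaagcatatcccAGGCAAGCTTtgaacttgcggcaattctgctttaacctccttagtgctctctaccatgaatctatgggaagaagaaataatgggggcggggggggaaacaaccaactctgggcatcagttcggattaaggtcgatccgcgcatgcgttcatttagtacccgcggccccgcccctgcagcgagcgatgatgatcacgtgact
Bcl2l1: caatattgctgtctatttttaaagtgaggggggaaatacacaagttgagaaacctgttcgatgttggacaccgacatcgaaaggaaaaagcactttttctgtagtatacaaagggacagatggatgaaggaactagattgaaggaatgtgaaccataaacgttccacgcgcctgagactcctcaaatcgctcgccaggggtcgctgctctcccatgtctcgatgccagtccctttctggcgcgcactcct
Mcl1: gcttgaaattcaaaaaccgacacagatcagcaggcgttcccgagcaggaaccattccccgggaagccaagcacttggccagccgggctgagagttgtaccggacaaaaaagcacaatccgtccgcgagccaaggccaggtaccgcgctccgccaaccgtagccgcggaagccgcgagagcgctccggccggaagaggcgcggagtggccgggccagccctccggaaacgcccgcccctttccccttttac
The capitals in the Bax line span positions -201 to -192 relative to the start of the transcript Bax-201. Windows were found for 7 of the 10 genes (Bax, Bak1, Bbc3, Fas, Apaf1, Bcl2l1 and Mcl1), 11 windows in all, and only this Bax window held a match. Of all 32851 promoter windows of the same length, 7.13% held at least 1 match. A match describes the letters and does not show binding, and the absence of one says only that these letters are not in the window.

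Bax had 6 annotated transcripts, and the share of each in the gene's TPM was compared between the groups. Bax-201, a coding transcript, made up 72.7%, 75.5% and 72.2% of Bax in the heterozygous and 76.8%, 83.1% and 76.9% in the LOH libraries. Its share was thus higher in each LOH library than in any heterozygous one, by 5.44 percentage points between means of 73.5% ± 1.78 and 78.9% ± 3.61 (SD, n = 3). Bax-203, the next most abundant, held 17.8%, 14.1% and 16.5% against 12.1%, 14.0% and 11.9%. In every library Bax-201 therefore remained the main form, while the gene as a whole fell. In the LOH library of line 23, where Bax-201 was highest, Bax-205 held 2.92%, against 10.05% and 10.03% in those of lines 6 and 34. The shares are estimates that divide reads between overlapping transcripts. Their difference between the groups was not tested, nor was it set against that of other genes. The annotated gene Gm45808 overlaps Bax on the same strand, and how its reads were shared with Bax was not checked at the read level.

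The genes whose pattern over the 6 libraries was most like that of Bax were sought among 8591 genes (mean 10 CPM or more), by the root mean square distance between log2 CPM values centred on each gene's mean. They were Nfe2l2, which encodes the oxidative stress factor NRF2, at a distance of 0.136, the host RNA Snhg15 at 0.147 and Id3, an inhibitor of basic helix-loop-helix factors, at 0.185. Nfe2l2 went from 348 ± 7.37 to 94.9 ± 11.2 CPM, Snhg15 from 20.3 ± 0.343 to 5.55 ± 2.22 CPM and Id3 from 47.1 ± 8.94 to 15.2 ± 3.80 CPM (SD, n = 3 per group). These genes were picked for their likeness to Bax, so their values are a description.

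Bak1 encodes the other pore-forming protein, and its level overlapped between the groups. The gene (ENSMUSG00000057789.13, chr17:27019810-27029009, minus strand) overlaps Ggnbp1 on the opposite strand. Its heterozygous libraries held 58.7, 61.5 and 64.0 CPM, and the LOH libraries 66.8, 42.6 and 52.1 CPM. The heterozygous values were close together, and the LOH values lay above them in line 6 and below them in lines 23 and 34. Its log2 fold change of -0.19 had a 95% interval of -0.69 to 0.31 (edgeR adjusted p = 0.601), which does not reach the size seen for Bax. On the length-corrected TPM scale the ratio of Bax to Bak1 within a library was 3.56, 3.06 and 3.32 in the heterozygous and 1.18, 1.15 and 1.04 in the LOH libraries, so Bax exceeded Bak1 about as much in each heterozygous line and by little in any LOH library. That ratio is taken within a library and does not depend on how libraries are scaled. Of Bak1 TPM, 27.6% to 37.4% in heterozygous and 32.9% to 42.3% in LOH libraries was assigned to Bak1-201, a transcript annotated for nonsense-mediated decay, and 38.4% to 52.0% and 44.4% to 51.1% to the coding Bak1-202.

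Bbc3 and Pmaip1, the BH3-only genes that p53 is known to activate directly, had estimates of opposite sign, and neither passed the test. Bbc3 (ENSMUSG00000002083.13, chr7:16308393-16318205, plus strand), the gene for PUMA, was low throughout, at 3.07, 5.05 and 4.51 CPM in the heterozygous and 1.46, 3.96 and 4.19 CPM in the LOH libraries. It was lower in LOH within each of the 3 lines, but the groups overlapped because line 6 was the lowest in both. Its log2 fold change, -0.38 (SE 0.46), was within the spread of the libraries (95% interval -1.48 to 0.71, edgeR adjusted p = 0.630). Only 25 to 135 counts stood behind each value, and the interval includes both no change and a drop of the size of that of Bcl2l1. Moreover, 37.7% to 52.4% of Bbc3 TPM in the heterozygous and 47.6% to 69.6% in the LOH libraries was assigned to Bbc3-203, an annotated retained-intron transcript that does not code for the protein. The main coding transcript, Bbc3-201, was at 1.22, 2.13 and 2.33 TPM in the heterozygous and 0.41, 1.47 and 1.04 TPM in the LOH libraries. Another coding transcript, Bbc3-202, was at 0.82, 0.29 and 0 TPM in the heterozygous libraries and at 0 TPM in every LOH library. The median gene was also lower in LOH on the TPM scale, so these values are not read as a change.

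Pmaip1 (ENSMUSG00000024521.7, chr18:66458533-66465565, plus strand), the gene for NOXA, which binds MCL1, was the only one of the 10 whose LOH values all lay above the heterozygous ones. It measured 14.0, 13.1 and 11.05 CPM in heterozygous and 16.01, 41.4 and 47.1 CPM in LOH organoids. Lines 23 and 34 were several-fold higher in LOH, whereas the line 6 libraries were close to each other, at log2 ratios of 0.19, 1.65 and 2.08. Its log2 fold change, 1.45 (SE 0.40, 95% interval 0.52 to 2.39), missed the threshold (edgeR adjusted p = 0.0794, and 0.189 with the line as a block). It passed with line 6 left out (adjusted p = 0.0387) or the LOH library of line 6 left out (adjusted p = 0.0146), and with DESeq2 on all libraries (adjusted p = 0.0102). Pmaip1 has 1 annotated transcript, so its gene value is that of the coding message.

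The death receptor genes showed no called difference, and 1 of them was close to undetected. Fas (ENSMUSG00000024778.12, chr19:34290666-34327772, plus strand), the receptor for Fas ligand, was covered by 12, 10 and 10 counts in heterozygous and by 19, 3 and 3 counts in LOH organoids, or 0.4, 0.742 and 0.334 CPM against 1.11, 0.113 and 0.14 CPM. The LOH libraries of lines 23 and 34 sat at the floor of 3 counts, while that of line 6 was the highest of all. Within lines the LOH to heterozygous ratio was 2.76 (95% interval 1.27 to 6.24) in line 6, 0.153 (0.0270 to 0.593) in line 23 and 0.418 (0.0740 to 1.63) in line 34. These intervals are exact binomial ones and cover counting error only, and the edgeR test over the libraries gave an adjusted p of 0.942 with a 95% interval of -2.28 to 2.02 on the log2 scale. The counting intervals thus exclude a ratio of 1 in line 6, where LOH was higher, and in line 23, where it was lower, and no difference shared by the lines was called. The RNA Gm27818 overlaps Fas on the same strand.

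Tnfrsf10b (ENSMUSG00000022074.6, chr14:69767472-69784411, plus strand) encodes the mouse TRAIL receptor. Its heterozygous libraries were at 34.8, 30.2 and 30.1 CPM and its LOH libraries at 32.1, 22.8 and 41.1 CPM. The LOH values spanned a wider range that enclosed all heterozygous ones, with line 23 lowest and line 34 highest. The log2 fold change was 0.01 (95% interval -0.57 to 0.59, edgeR adjusted p = 0.981), and its sign turned in 11 of 18 alternatives. Neither ligand was tested, since Fasl had 0 counts in every library and Tnfsf10 at most 4.

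Apaf1 (ENSMUSG00000019979.12, chr10:90989311-91082770, minus strand, overlapped on the other strand by the small RNA Gm25390), the scaffold of the apoptosome, was at 40.9, 41.9 and 44.3 CPM in heterozygous and at 25.0, 36.2 and 55.04 CPM in LOH organoids. The LOH values were spread to both sides of the narrow heterozygous range, below it in lines 6 and 23 and above it in line 34. Its log2 fold change was -0.13 (95% interval -0.82 to 0.56, edgeR adjusted p = 0.811). Perp (ENSMUSG00000019851.8, chr10:18845020-18857073, plus strand), a membrane protein known both as a p53 target and as a part of desmosomes, the junctions that anchor epithelial cells to each other, had the same order of lines. It stood at 159, 201 and 184 CPM in the heterozygous and at 109, 139 and 210.3 CPM in the LOH libraries. Line 34 was again the exception, and the log2 fold change of -0.25 was within the spread of the libraries (95% interval -0.88 to 0.38, edgeR adjusted p = 0.588). Both genes lie on chromosome 10, where 480 other genes had median log2 ratios of -0.48, -0.16 and 0.04, beside -0.71, -0.21 and 0.31 for Apaf1 and -0.55, -0.54 and 0.19 for Perp. The part of the chromosome-wide shift in either gene was not tested.

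The protective genes Bcl2l1 and Mcl1 were both lower in LOH libraries, without passing the test. Bcl2l1 (ENSMUSG00000007659.18, chr2:152780668-152831728, minus strand), the gene for BCL-XL, was at 157, 158 and 158 CPM in heterozygous and at 74.2, 61.0 and 101.6 CPM in LOH organoids. The heterozygous libraries were nearly equal (157.6 ± 0.854 CPM, SD, n = 3), and all LOH libraries were well below them (78.9 ± 20.7 CPM). The ratio of the means was 2.0 and the log2 fold change -1.0 (SE 0.22, 95% interval -1.52 to -0.47), with an edgeR adjusted p of 0.0516, just above the threshold of 0.05. The estimate was called in 8 of 18 alternatives, among them upper quartile scaling (adjusted p = 0.0423), the protein-coding table alone (0.0456) and DESeq2 (0.00356), but not with the line as a block (0.118). By line the log2 ratios were -1.08, -1.37 and -0.64, and the chromosome 2 medians over 784 other genes were 0.02, -0.31 and 0.01.

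Mcl1 (ENSMUSG00000038612.16, chr3:95658788-95663176, plus strand), the partner of NOXA, measured 189.9, 241 and 223 CPM in the heterozygous and 164, 136 and 154 CPM in LOH organoids. The groups did not overlap, but the gap was small in line 6. The log2 fold change was -0.52 (SE 0.18, 95% interval -0.94 to -0.11, edgeR adjusted p = 0.124), and by line -0.21, -0.82 and -0.53, on a chromosome whose median was 0.22, 0.11 and 0.16 over 511 other genes. For single genes, an exact two-sided permutation test of 3 against 3 libraries cannot give a p below 0.1. Groups that do not overlap, as in 32.8% of all genes tested, always give this value. Bax, Pmaip1, Bcl2l1 and Mcl1 reached it, as did Trp53, so it only restates their separation.

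**Figure D2:**
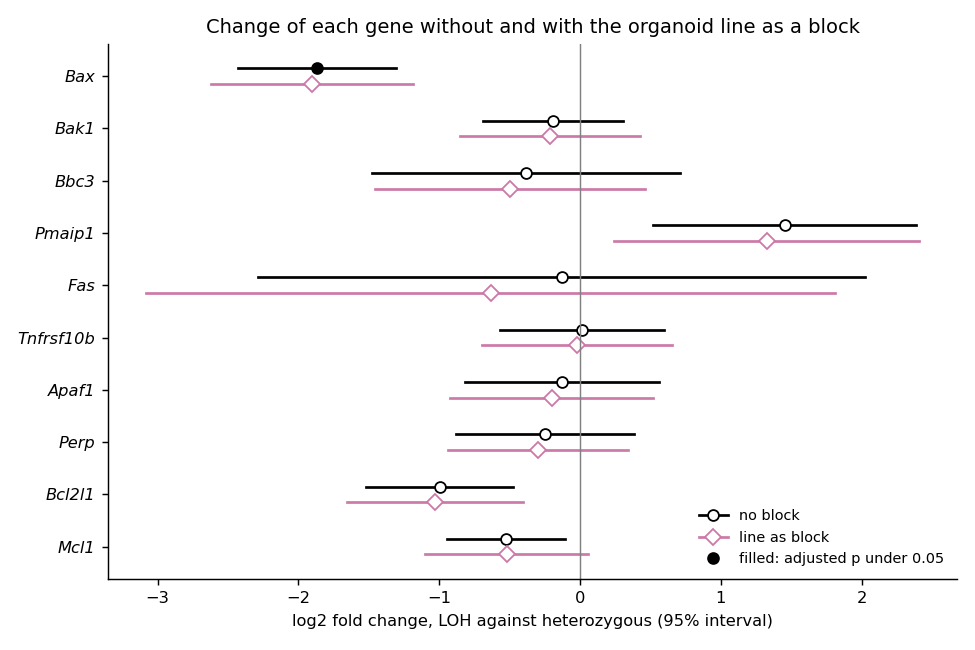
Log2 fold change of each gene, LOH against heterozygous (horizontal axis), with 95% intervals, without a block (black circles) and blocked by organoid line (pink diamonds). A filled symbol marks an edgeR adjusted p under 0.05, which only Bax without the block has (0.0164, and 0.0534 with it), and the widest interval is that of Fas.

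Transcript mixtures of the protective genes overlapped between the genotypes. Bcl2l1 had 9 annotated transcripts, of which Bcl2l1-201 took 45.3%, 36.4% and 30.7% of its TPM in heterozygous and 44.2%, 25.3% and 34.3% in LOH organoids. The share of Bcl2l1-202 was 34.5%, 36.5% and 49.0% against 41.4%, 48.5% and 45.2%. Neither transcript had values that set the 2 genotypes apart. Mcl1-201 held between 85.0% and 100% of Mcl1 TPM in the heterozygous and between 86.4% and 100% in the LOH libraries. These are estimates that share reads between isoforms with long common stretches, and they were not tested.

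**Figure D3:**
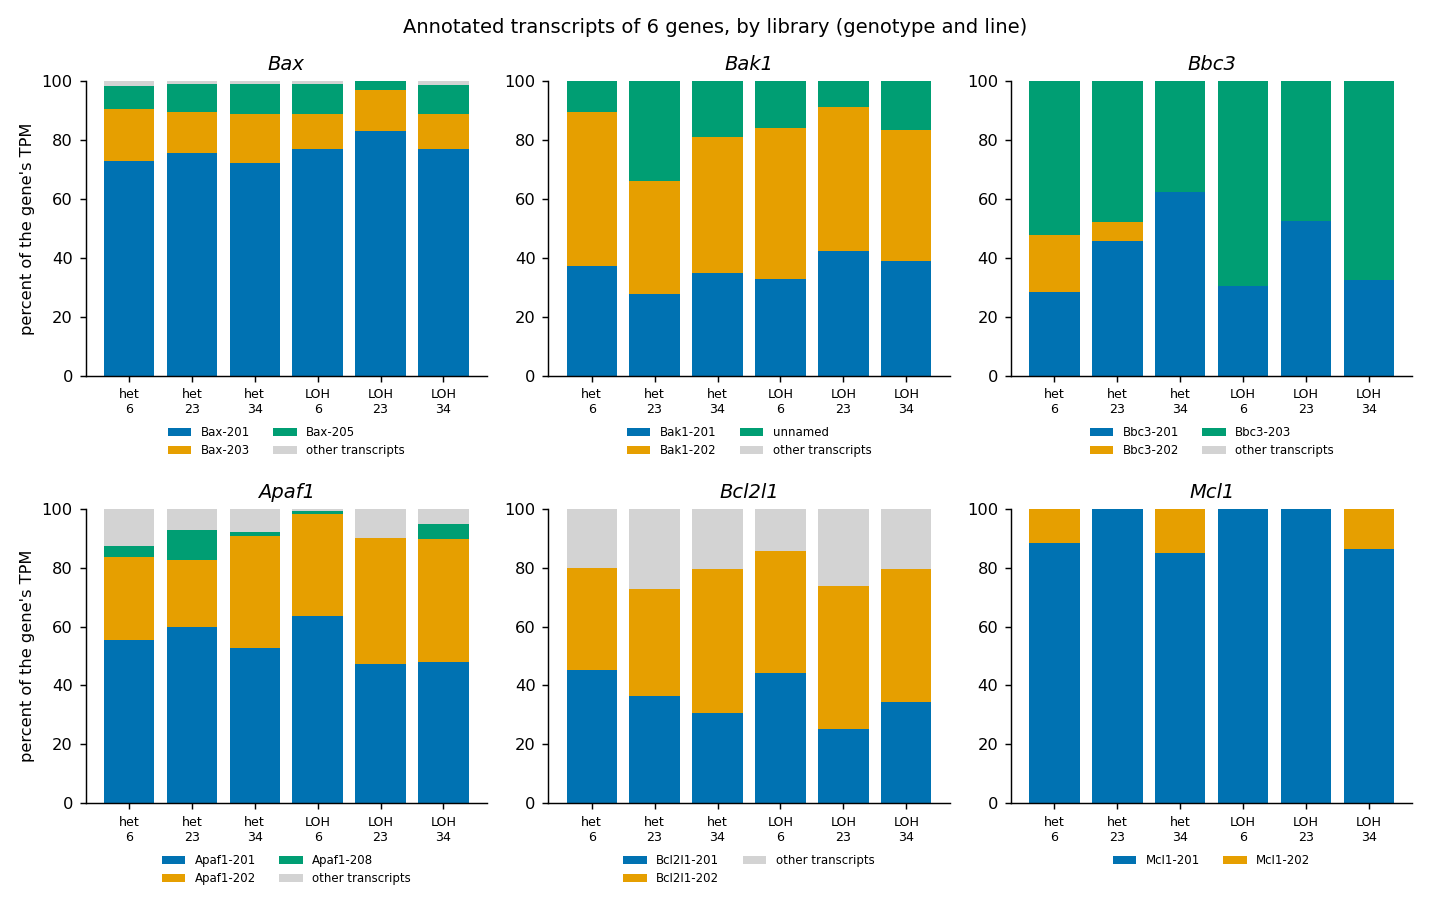
Share of each gene's TPM (vertical axis, percent) assigned to its annotated transcripts, for 6 of the genes, in each library (horizontal axis, genotype and line). Transcripts over 10% in some library have a colour, and grey is the rest. Bax-201 takes 72.2% to 75.5% of Bax in heterozygous and 76.8% to 83.1% in LOH libraries, while retained-intron Bbc3-203 ranges from 37.7% to 69.6%.

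Levels can be set against each other between genes only on the TPM scale, which corrects for transcript length. In heterozygous organoids the order was Bax (138 ± 4.84 TPM), Perp (114 ± 2.66), Bcl2l1 (88.9 ± 7.59), Mcl1 (80.9 ± 3.93), Bak1 (41.7 ± 2.14), Tnfrsf10b (12.9 ± 2.62), Apaf1 (8.23 ± 1.02), Pmaip1 (5.83 ± 1.25), Bbc3 (4.22 ± 0.457) and Fas (0.41 ± 0.157 TPM, SD, n = 3). No neighbours in that order overlapped over the 3 libraries. In LOH organoids Perp led (71.98 ± 18.1 TPM), followed by Mcl1 (41.7 ± 5.72), Bcl2l1 (32.7 ± 6.05), Bax (29.5 ± 10.6) and Bak1 (26.2 ± 8.30), and each of the last 4 overlapped its neighbour. Pmaip1 (11.8 ± 4.93 TPM) stood above Tnfrsf10b (9.51 ± 2.36) and Apaf1 (5.43 ± 1.72) there, again with overlap between neighbours, and Bbc3 (2.46 ± 0.973) and Fas (0.317 ± 0.410) came last. Bax, first among the 10 in heterozygous organoids, overlapped Mcl1, Bcl2l1 and Bak1 in the LOH group, although within each LOH library it was below Mcl1 (47.4, 35.9 and 41.7 TPM against 41.8, 22.3 and 24.6 TPM for Bax in lines 6, 23 and 34) and above Bak1. Mcl1 and Bak1 did not overlap. The median gene was lower in LOH libraries on the TPM scale (log2 fold change -0.35 after adding 1). For that reason only the order within a group is read here.

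Pore-forming and protective transcripts were also set side by side within each library. Bax and Bak1 together reached 183, 179 and 175 TPM in heterozygous organoids, against 179.8, 161 and 168 TPM for Bcl2l1 and Mcl1. In the LOH libraries the sums were 77.2, 41.8 and 48.1 TPM against 80.3, 62.5 and 80.4 TPM. The ratio of the pore-forming to the protective sum was therefore 1.02, 1.11 and 1.04 in heterozygous and 0.961, 0.668 and 0.599 in LOH libraries, lower in each LOH library and least so in line 6. Bax over Bcl2l1 alone was 1.47, 1.59 and 1.60 against 1.27, 0.839 and 0.635. These ratios are of RNA and were formed from genes with known values, so no test is given. They use the TPM of whole genes, which for Bak1 includes transcripts not annotated as coding.

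**Figure D4:**
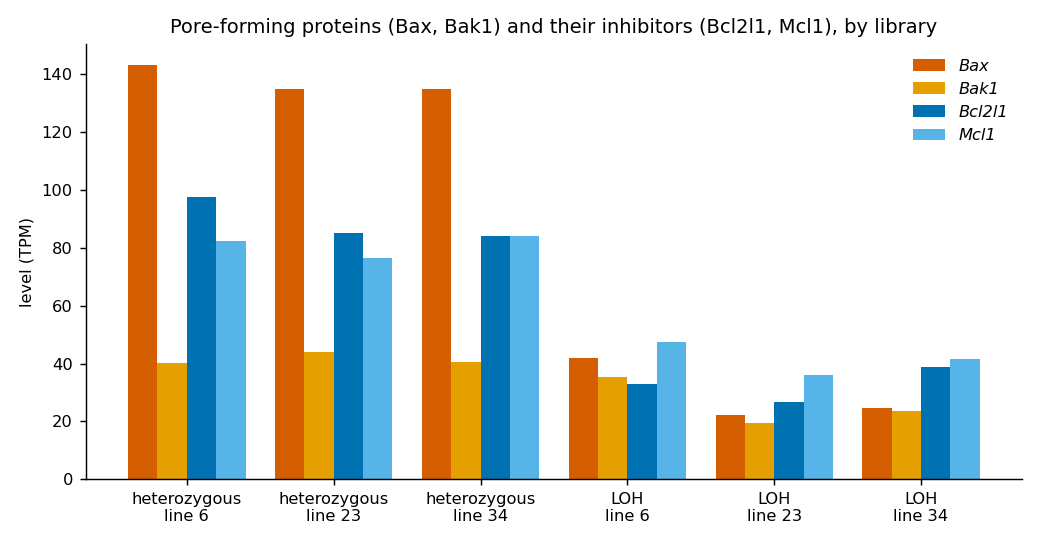
Level in TPM (vertical axis, linear, from 0) of the pore-forming genes Bax and Bak1 and the protective genes Bcl2l1 and Mcl1 in each of the 6 libraries (horizontal axis). Bax is the tallest bar in each heterozygous library (135 to 143 TPM) and in no LOH library (22.3 to 41.8 TPM).

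The rest of the BCL2 family, 21 further genes of which 15 were tested, included 2 that passed, both higher in LOH (3.55% of all genes tested). Bmf, a BH3-only gene known to respond to loss of anchorage, went from 1.70, 2.60 and 1.64 CPM in the heterozygous to 14.6, 30.7 and 13.1 CPM in the LOH libraries. Bcl2l14, the gene for BCL-G, was at 1.67, 2.89 and 1.84 CPM and rose to 19.0, 15.97 and 21.1 CPM. Both groups of libraries were far apart in every line, with log2 fold changes of 3.31 for Bmf (SE 0.43, edgeR adjusted p = 0.0164, blocked 0.0318) and 3.15 for Bcl2l14 (SE 0.31, edgeR adjusted p = 0.0108, blocked 0.0341). The list as a whole had 6 genes higher and 2 lower at an unadjusted p under 0.05 (14.7% and 10.6% of all genes). It had a median log2 fold change of 0.25 against 0.06 over all genes, which became -0.15 on the log2(TPM + 1) scale, where all genes had -0.35. Among those that missed the threshold, picked after their values were seen, were Bcl2l11, the gene for the BH3-only protein BIM (log2 fold change 1.12, edgeR adjusted p = 0.0503), Bok, a relative of Bax and Bak1 (-0.75, adjusted p = 0.0782), and Bcl2 itself (0.64, adjusted p = 0.212). The 6 genes not tested were Bcl2a1a, Bcl2a1b, Bcl2a1d, Bcl2l10, Bik and Hrk, none with more than 27 counts in a library.

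Downstream of the mitochondria, none of 19 genes of the apoptosome, the caspases and their inhibitors passed edgeR's test, against 5.21% of all genes. At an unadjusted p under 0.05 there were 4, 1 higher and 3 lower, which is near the 25.3% of all genes. DESeq2 called 1, against 8.32% of the 27027 genes with any count, a set that includes genes too low for edgeR's filter. Cycs, the gene for the cytochrome c that meets APAF1, was at 85.8 CPM on average in heterozygous and 44.5 CPM in LOH libraries (log2 fold change -0.95, edgeR adjusted p = 0.128). The initiator caspase gene Casp9 (log2 fold change 0.26, edgeR adjusted p = 0.556) overlapped between the groups, as did Casp8 of the receptor route (0.12, adjusted p = 0.737). The median log2 fold change of this list was -0.19, or -0.10 without the LOH library of line 6 and -0.07 with at least 10 counts in every library. It was -0.34 on the log2(TPM + 1) scale, where all genes had -0.35.

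Around the death receptors, 17 genes were listed and 14 tested, and 1 passed, against 5.21% of all genes. Tnfrsf1b, the second receptor for tumour necrosis factor, which lacks a death domain, rose from 12.8, 18.0 and 15.3 CPM to 46.7, 54.4 and 84.9 CPM. Every LOH library was above every heterozygous one, and Tnfrsf1b rose by 2.01 on the log2 scale (SE 0.28, edgeR adjusted p = 0.0197, blocked 0.0492). The list median of 0.22 became 0.10 without the LOH library of line 34, 0.02 without both libraries of that line, and -0.08 on the log2(TPM + 1) scale, where all genes had -0.35. Fadd, the adaptor that links Fas to Casp8, had a log2 fold change of -0.63 (edgeR adjusted p = 0.119), and Cflar, which codes for a blocker of that step, 0.39 (adjusted p = 0.440).

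Other apoptosis genes linked to p53 had the lowest median of the 5 lists, -0.90 over 17 tested of 20, with 4 genes called, all lower (1.66% of all genes tested), and 8 lower against 1 higher at an unadjusted p under 0.05 (10.6% and 14.7% of all genes). That median was -0.39 without the heterozygous library of line 6 and -0.60 without the LOH library of line 6. Zmat3, which encodes an RNA-binding p53 target, fell from 80.1, 52.8 and 43.2 CPM to 20.5, 13.8 and 12.2 CPM. The drop was much the same in each line (log2 ratios -1.96, -1.93 and -1.82), and its log2 fold change of -1.92 held with the block (edgeR adjusted p = 0.0267 without and 0.0358 with it). Aen, a nuclease gene induced by p53, went from 60.0, 69.4 and 69.1 to 26.9, 7.63 and 16.8 CPM, a log2 fold change of -1.96 (edgeR adjusted p = 0.0489). Igfbp3, for a secreted binder of insulin-like growth factors, and Peg3, an imprinted zinc-finger gene, also fell, with log2 fold changes of -2.79 (edgeR adjusted p = 0.0459) and -3.50 (adjusted p = 0.0334). With the block these last 3 missed the threshold (adjusted p = 0.0925 for Aen, 0.0744 for Igfbp3 and 0.0777 for Peg3). Pidd1 (log2 fold change -1.60, edgeR adjusted p = 0.083) and Siva1 (-0.98, adjusted p = 0.0866) missed it without the block, and Shisa5 was on the other side of 0 (0.79, adjusted p = 0.101).

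Among 14 desmosome genes, listed because Perp belongs to that junction, 10 were tested and Dsc2 passed, against 5.21% of all genes. This cadherin gene of the desmosome rose from 12.3, 6.01 and 7.04 CPM to 75.9, 108.5 and 47.3 CPM (log2 fold change 3.19, SE 0.42, edgeR adjusted p = 0.0164, blocked 0.0397). The plaque genes Dsp (log2 fold change 0.01), Jup (0.30), Ppl (-0.01) and Pkp1 (0.96) had edgeR adjusted p-values of 0.986, 0.375, 0.991 and 0.196. Of the 10 tested, 8 estimates were above 0 and 2 below, against 7850 above 0 of all 14537 genes. At an unadjusted p under 0.05, 2 were higher and 0 lower (14.7% and 10.6% of all genes). The list median was 0.31, against 0.06 over all genes, or 0.20 without the LOH library of line 34. It was -0.13 on the log2(TPM + 1) scale, where all genes had -0.35.

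Every call in these lists was lost when any single heterozygous library was left out, as were all calls over all genes in those fits. The edgeR adjusted p without the heterozygous library of line 6, 23 or 34 was 0.11, 0.0931 and 0.103 for Bmf, 0.0742, 0.0735 and 0.0813 for Bcl2l14, 0.115, 0.0951 and 0.118 for Tnfrsf1b, 0.0746, 0.0951 and 0.103 for Dsc2, 0.115, 0.105 and 0.103 for Zmat3, and from 0.124 to 0.192 for Aen, Igfbp3 and Peg3. Without the LOH library of line 23, Zmat3 (adjusted p = 0.0647), Igfbp3 (0.112) and Peg3 (0.0573) were lost as well, and without that of line 34, Aen (0.0927) and Peg3 (0.0607).

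**Figure D5:**
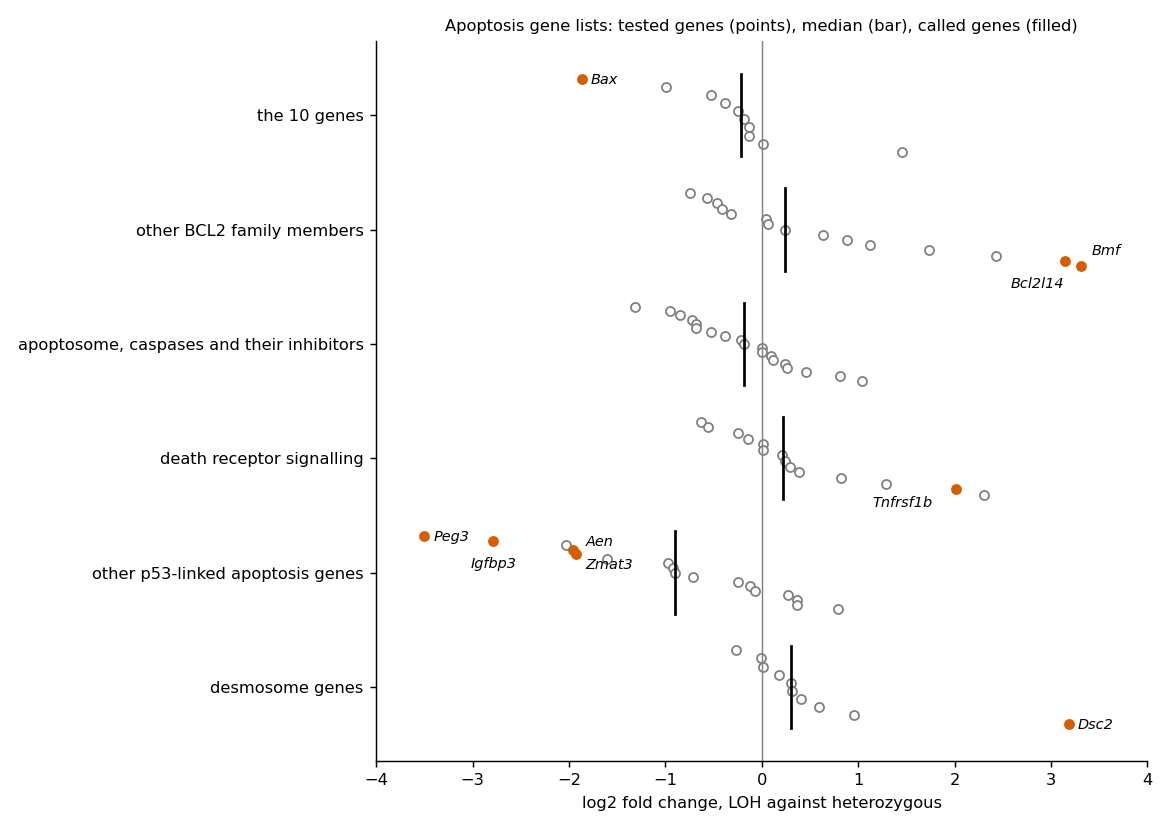
Log2 fold change, LOH against heterozygous (horizontal axis), of every tested gene of the 10 and of the 5 other lists (rows), with a bar at each median. Filled, named points have an edgeR adjusted p under 0.05 without the block. The called points of the other p53-linked genes all lie left of 0, those of the other BCL2 family members, death receptor signalling and desmosome genes right of it.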

How the data were processed

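Total RNA from 6 pancreatic tumour organoid cultures was made into stranded libraries, per the labels' protocols. FastQC 0.11.5, STAR 2.5.2b, RSEM 1.3.0, DESeq2 1.44.0 and GRCm38.p5 are named in the submitters' processing notes. The strand setting of the counting is not given in the sources used here, so overlapping genes are named. Expected counts, the authors' deposited RSEM estimates of reads per gene or transcript, need not be whole. TPM values are abundances that the authors deposited beside them, scaled for length and depth. The deposited normalized tables hold a signal, the truncated expected count divided by 1 size factor per library in 100% of values above 0 (tolerance 0.01 count), and served here only for gene symbols and for the protein-coding gene set. Transcript shares are the percent of a gene's TPM per isoform, as the authors deposited them. The number of per-sample columns left unused was 0.

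Samples were grouped by their titles. Expected counts were rounded, genes kept by filterByExpr, libraries scaled by TMM, and the groups compared with edgeR 4.0.16 in R 4.3.3 (two-sided quasi-likelihood test, Benjamini-Hochberg adjustment over all genes, threshold 0.05). CPM are TMM-scaled, log2 CPM used a prior count of 2, intervals are 95%, and standard errors are the log2 fold change over the square root of F. Other settings tried were RLE or upper quartile scaling, dropping the filter or asking for 10 counts in every library, the protein-coding set, a block for the organoid line, omission of each library or each line, DESeq2 1.42.0, and limma 3.58.1 on TPM after adding 1 or 0.1 and taking log2. Plots and tables used Python 3.11.15, numpy 2.4.6, pandas 2.3.3, scipy 1.17.1 and matplotlib 3.10.9.

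The titles put both libraries of a number in the same organoid line, and the pairing comes from there. Checked over genes, which are not independent replicates, the deviations of both libraries of a line from their group means had correlations of -0.3, 0.0094 and 0.29 for lines 6, 23 and 34. Pairs from different lines ran from -0.39 (heterozygous line 34 with LOH line 23) to 0.3 (heterozygous line 6 with LOH line 23). These correlations therefore do not set the same-line pairs apart, and the pairing rests on the titles alone. Since a paired model is named in no label, the unblocked test is given first. All pairs of libraries of 1 group differed beyond sampling noise (chi-square per degree of freedom 34.7 or more).

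The 10 genes, the 5 lists and the alternatives were chosen with earlier results of these data known. Beyond the 10 genes and Trp53, the text names the genes of each list with an adjusted p under 0.05 with or without the block (at most 4 per list), and the 3 genes nearest to each called gene of the 10. A gene named beside them for its role, or for an adjusted p near the threshold, was picked after its values were seen. Coordinates are GRCm38, from GENCODE mouse release 21, which held 53274 of 53379 gene identifiers. Promoter sequences are from RefSeq.

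The test was run on simulated data with 200 changed genes among 14128 tested. It called 62 of 67 genes changed 16-fold, 37 of 67 changed 4-fold and 1 of 66 changed 2-fold, with 6 false calls, and with the block 56, 31 and 1, with 5 false calls. The simulated counts held no differences between lines, so they cannot show what the block does where lines differ. Reads carried no molecular identifiers, so counting intervals and floors leave out other errors. Some items of the genotype and of the lists are not reported here.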

Additional observations from a re-analysis of the deposited data

Results flagged for a closer look

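The 15 results compared over the lines were the 10 genes and the medians of the 5 lists, and 7 of them had LOH to heterozygous log2 ratios of both signs among lines 6, 23 and 34. With 1 library per genotype and line, none of these differences between lines was tested.

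Apaf1 (log2 ratios -0.71, -0.21 and 0.31 in lines 6, 23 and 34), Perp (-0.55, -0.54 and 0.19) and Tnfrsf10b (-0.12, -0.40 and 0.45) were above 0 in line 34 only, and their lines lay 1.02, 0.74 and 0.85 log2 units apart. Bak1 was above 0 in line 6 only (0.19, -0.53 and -0.30), with 0.72 between its highest and lowest line. Fas, at 3 to 19 counts per library, was also above 0 in line 6 only, with 3.34 between lines 6 and 23. Among the lists, the median of the apoptosome, caspase and inhibitor genes was 0.07, -0.27 and -0.11, which spans 0.34. The median of the death receptor genes was -0.07, 0.16 and 0.45, which spans 0.52.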

How the results depend on the processing

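Of 18 alternatives, the direction of Bax, Bak1, Bbc3, Pmaip1, Perp, Bcl2l1 and Mcl1 was kept in all, and Bax was called in 12, Bcl2l1 in 8, Pmaip1 in 3 and Mcl1 in 2, both of them on the TPM scale. Fas had a value in 14 of the 18, since filters on low values left it out of the others. The precision rests on 3 libraries per group. In the simulation 1 of 66 genes changed 2-fold was called. Only 200 genes of mixed levels were changed there, whereas the data gave 757 calls. That rate therefore does not describe a single gene such as Bcl2l1. The cause of the differences between settings was not tested, nor was the part of the smaller number of libraries where some are left out.

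With the line as a block, 213 genes were called over all genes, 0 of the 10 and 1 of the p53-linked list, and no other list changed its count. DESeq2 called 2249 genes (8.32% of 27027 with any count), 3 of the 10, 6 other BCL2 family members, 1 apoptosome or caspase gene, 2 death receptor genes and 7 p53-linked genes. On log2(TPM + 1) the counts in that order were 1911 (of 11918 genes tested), 3, 5, 3, 2 and 8. On log2(TPM + 0.1) they were 1753 (of 11918), 3, 4, 2, 2 and 8. The 10 genes had 2 calls with upper quartile scaling, with no filter and with the protein-coding table. Over all genes these settings called 751 of 14537, 979 of 27027 and 765 of 12834. The death receptor list had 2 with the protein-coding table and with at least 10 counts, where 627 of 11928 genes were called.

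Without line 6, 1422 of 14727 genes tested were called, 2 of the 10 and 2 apoptosome or caspase genes. Without line 23 or line 34 the count was 0 over all genes and in every list, though 2253 and 2097 genes had an unadjusted p under 0.05. Leaving out 1 library gave 0 to 2449 calls over all genes, the most (of 15132 tested) without the LOH library of line 6. There were 0 without any heterozygous library, where 2966, 2637 and 2272 genes had an unadjusted p under 0.05. Over the fits with 1 library left out the counts ran from 0 to 3 of the 10 and from 0 to 5 in the BCL2, apoptosome and death receptor lists. They ran from 0 to 7 in the p53-linked list and from 0 to 1 in the desmosome list.

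The log2 fold change turned in sign for 3 genes that were never called. Fas became 0.729 without line 23 and 0.077 without line 34, and ran from -1.91 to 0.358 with single libraries left out. Apaf1 became 0.0523 without line 6 and ran from -0.471 to 0.0676 with single libraries left out. Tnfrsf10b became -0.0132 with upper quartile scaling, -0.0107 with DESeq2, -0.0278 with no filter, -0.0236 with the block, -0.248 without line 34, -0.417 and -0.453 on log2(TPM + 1) and log2(TPM + 0.1), and ran from -0.211 to 0.206 with single libraries left out.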

Other observations

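Xiap, the gene for the inhibitor that binds and blocks caspases, differed more between the lines than any of the 10 genes. It stood at 84.5, 10.5 and 19.3 CPM in heterozygous and at 16.01, 110.6 and 109.5 CPM in LOH organoids of lines 6, 23 and 34. The log2 ratios were -2.39, 3.38 and 2.5, so Xiap was high in the heterozygous library of line 6 and in the LOH libraries of the other lines. It was not called (edgeR adjusted p = 0.506), and it was picked here after its values were seen. Trp53inp1, which encodes a stress-induced partner of p53, had ratios of -4.08, 0.80 and -0.26 on the log2 scale (edgeR adjusted p = 0.478), and Tnf had -1.71, 1.54 and 3.75 (adjusted p = 0.223).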
